A study of Homo sapiens with 4 samples.

Results

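The mitochondrial ribosomal protein genes are the nuclear genes whose MRPL and MRPS products make up the ribosome inside mitochondria. They were taken by symbol alone, as every MRPL or MRPS symbol followed by digits and at most 1 further letter. The rule gave 77 of the 24424 gene symbols, 48 MRPL and 29 MRPS, and left out 4 symbols with a hyphen or a pseudogene suffix (MRPL23-AS1, MRPL42P5, MRPL45P2 and MRPS31P5). RNA was sequenced from BEAS-2B, an established human cell line from bronchial epithelium, in 4 conditions. Control cells received no treatment, LPS cells received bacterial lipopolysaccharide for 2 h, and the other 2 groups received a peptide for 24 h before the same 2 h of LPS. The peptide carried by WT PDZ+LPS cells copies part of the first PDZ domain of the tight-junction protein ZO-1, joined to a TAT stretch for entry into cells. Cells of mut PDZ+LPS received a peptide in which a neighbouring pair of glycines was changed to alanines. Each condition had 1 library, all from the same cell line, so that a difference between conditions and a difference between single libraries cannot be told apart, and no comparison carries a test.

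The mitochondrial ribosome translates the few mRNAs made from mitochondrial DNA, all of which encode subunits of the oxidative phosphorylation complexes. Its RNAs come from the mitochondrial genome, whereas its proteins are encoded in the nucleus, made in the cytosol and imported, so that their supply has to be matched to RNA made elsewhere. The large subunit carries the peptidyl transferase centre, the stalk that receives translation factors and the exit tunnel, which opens at the inner membrane. The small subunit holds the mRNA and the decoding site. Some of the proteins descend from bacterial ribosomal proteins, and others exist only in mitochondria. The ETS factor GABP (also called NRF2), NRF1 and YY1 are known regulators of nuclear genes for mitochondrial proteins.

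Many promoters of these genes share letters that the choice by symbol did not use. A window from 250 bases before to 50 bases after the start was read from RefSeq for 68 of the 77 genes on GRCh38.p14. The ETS letters CCGGAAG, searched on both strands, were found in 28 of the 68 windows (41.2%), compared with 14.5% of the 14711 windows of all genes and 19.7% of the 9344 windows of the other expressed genes. The YY1 letters AAGATGGC were found in 20 (29.4%), against 4.03% of all windows and 5.43% of those of expressed genes. Of the 68 genes, 40 (58.8%) had at least 1 of the pair and 8 (11.8%) had both, against 23.9% and 1.29% of the other expressed genes. ETS letters lay mainly just upstream, with 26 of 37 matches within 100 bases before the start, and 15 of 21 YY1 matches lay after it. Positions of the matches in other genes were not counted.

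The 100 bases before the start are shown for 7 genes, chosen after the matches and values were known. MRPL33 and MRPL32 had the highest values in LPS/Control, and MRPL12 had the lowest value there and the highest level of all. MRPS34 and MRPL20 carry repeated ETS letters, and MRPL52 and MRPL36 carry YY1 letters. Each is written from 5′ to 3′ along the gene, and capitals mark complete ETS or YY1 matches on either strand.
MRPL33, chr2:27771619-27771718, plus strand: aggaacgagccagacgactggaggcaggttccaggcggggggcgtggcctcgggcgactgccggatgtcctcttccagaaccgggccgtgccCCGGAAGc
MRPL32, chr7:42932276-42932375, plus strand: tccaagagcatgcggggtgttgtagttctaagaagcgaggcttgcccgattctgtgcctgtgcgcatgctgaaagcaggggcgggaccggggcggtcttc
MRPL12, chr17:81703267-81703366, plus strand: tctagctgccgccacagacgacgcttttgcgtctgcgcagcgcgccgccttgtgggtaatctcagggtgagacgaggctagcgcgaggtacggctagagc
MRPS34, chr16:1773135-1773234, minus strand: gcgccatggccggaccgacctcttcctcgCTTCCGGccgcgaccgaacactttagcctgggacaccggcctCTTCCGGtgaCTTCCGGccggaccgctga
MRPL20, chr1:1407294-1407393, minus strand: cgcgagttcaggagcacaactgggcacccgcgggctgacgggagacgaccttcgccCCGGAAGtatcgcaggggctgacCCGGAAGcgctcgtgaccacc
MRPL52, chr14:22829787-22829886, plus strand: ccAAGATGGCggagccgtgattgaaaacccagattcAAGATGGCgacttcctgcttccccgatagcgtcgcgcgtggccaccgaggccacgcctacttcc
MRPL36, chr5:1799838-1799937, minus strand: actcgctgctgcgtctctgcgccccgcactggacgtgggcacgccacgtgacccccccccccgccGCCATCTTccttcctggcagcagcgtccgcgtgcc

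MRPL33 has a single ETS match next to its start, MRPS34 has 3 and MRPL20 has 2. MRPL32 and MRPL12 show none of these letters in the stretch printed. The 10-letter NRF1 motif, with 1 free position, was in 8 windows (11.8%), against 11.98% of the other expressed genes. The GC box GGGCGG was in 60.3% of the members' windows, against 71.5% of those of other expressed genes and 59.7% of all windows. The CCAAT box was in 29.4% (36.8% and 36.3%), and TATAAA was in 2 windows (2.94%; 5.24% and 9.26%). None of these differences in frequency was tested. The 10-letter motif of NF-kB, the main transcription factor activated by LPS, was in 3 windows (4.41% against 2.17%), those of MRPL14, MRPL30 and MRPL9, and the AP-1 letters TGANTCA were in 1 (1.47% against 4.45%), that of MRPS35. A match is a run of letters and not a shown binding site.

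**Figure D1:**
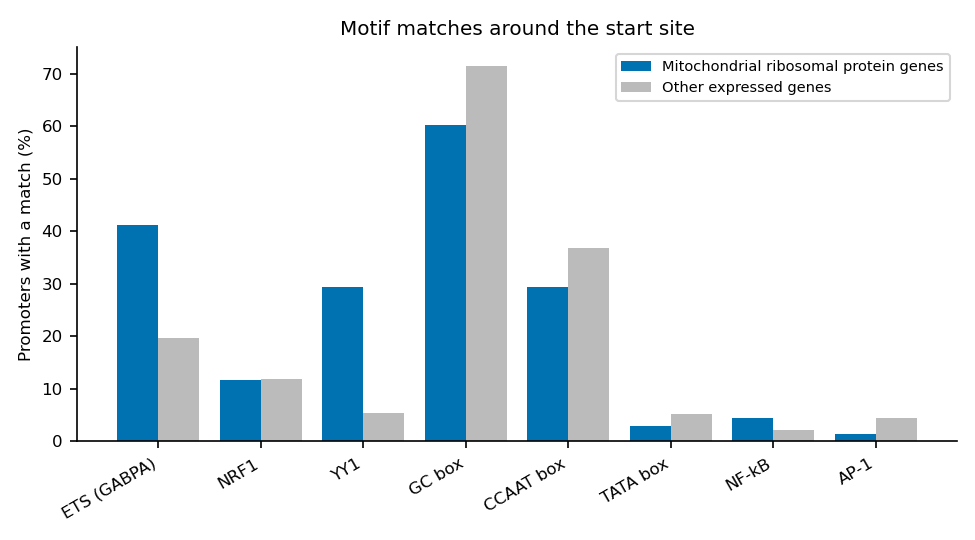
Share of promoter windows with at least 1 match to each named motif (vertical axis, percent), for the 68 mitochondrial ribosomal protein genes with a window (blue) and the 9344 other expressed genes (grey). The ETS bar (41.2% against 19.7%) and the YY1 bar (29.4% against 5.43%) stand above those of the other genes.

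The 4 libraries held between 19682929 (mut PDZ+LPS) and 25155647 (LPS) counted reads. Counts were divided by a size factor for each library, giving normalized counts, and fold changes are log2 ratios of normalized counts after adding 1. The counting interval beside a fold change is an exact 95% binomial interval, which covers counting error only and not the variation between cultures. A gene was called expressed when its mean was at least 16 normalized counts, which held for 13072 symbols and all 77 mitochondrial ribosomal protein genes. No member had fewer than 269 reads (MRPL55, WT PDZ+LPS) or more than 4823 (MRPS27, Control) in any library. The epithelial keratins KRT8 and KRT18 were abundant in every library, as was the mesenchymal VIM, while EPCAM had 37 to 51 reads and PTPRC, which marks leukocytes, had none.

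All 77 genes were transcribed in all 4 conditions. Their median level in Control was 739 normalized counts per kb of the longest transcript, against 218 for expressed genes as a whole. The span between the highest and lowest member was 38.4-fold. Before division by length the medians were closer, at 1169 and 787 normalized counts, so that the contrast per kb depends on the transcript lengths used. Together they took 0.482% of all reads in Control and 0.419% in LPS, then 0.415% with the WT and 0.512% with the mutant peptide. Their transcripts were short, with a median length of 1532 nt (518 for MRPL33 to 15582 for MRPL42) against 3479 nt for all expressed genes. Their GC content (median 48.9%) was close to that of all genes (48.5%). They lie on 21 chromosomes, with no more than 8 on any of them.

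MRPL12, the stalk protein that contacts translation factors, had the highest level, with normalized counts per kb of 4071 in Control, 3319 in LPS, 3565 with the WT peptide and 4790.3 with the mutant peptide. MRPS15, a small-subunit protein of bacterial descent, came next, with normalized counts per kb of 2975 in Control, 2612 in LPS, 2548 with the WT peptide and 3706 with the mutant peptide. MRPL51, a mitochondrion-specific protein of the large subunit, had normalized counts per kb of 2215 in Control, 1863 in LPS, 1750.3 with the WT peptide and 2422 with the mutant peptide. MRPL12 and MRPS15 held the first places in all 4 libraries, whereas the place after them was taken by MRPL33 in LPS and WT PDZ+LPS and by MRPS24 in mut PDZ+LPS. MRPL3 (1945 normalized counts per kb in Control), which lies near the peptidyl transferase centre, and MRPL37 (1829.7), a mitochondrion-specific protein, completed the highest 5.

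The lowest 5 per kb in Control were MRPL42 (106), MRPL50 (140), MRPS33 (172), MRPS11 (219) and MRPL55 (221). These low values per kb depend on the transcript used. The longest annotated transcript of MRPL42 has 15582 nt and its median transcript 920 nt, and in 15 of the 77 genes the longest transcript exceeds the median transcript by over 2 times. Where MRPL42 stands in the order of levels therefore rests on which of its transcripts these cells make, which gene counts do not show.

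**Figure D2:**
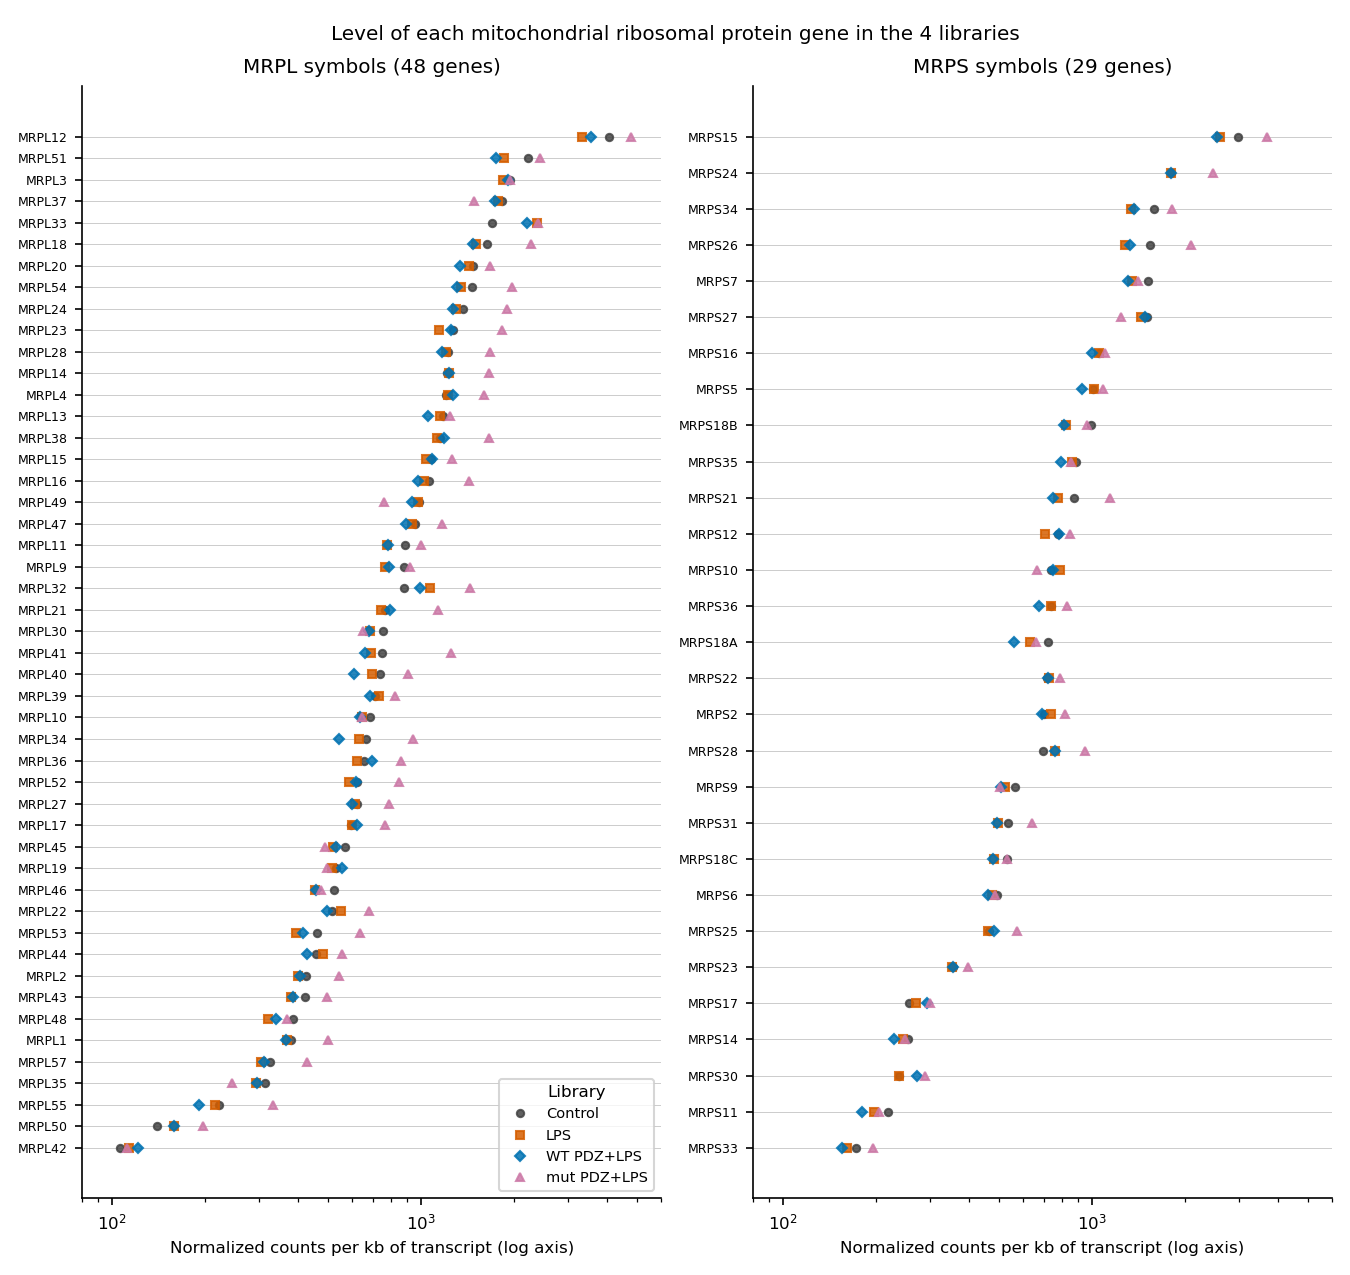
Normalized counts per kb of transcript (horizontal axis, logarithmic) of each mitochondrial ribosomal protein gene in the 4 libraries (Control circles, LPS squares, WT PDZ+LPS diamonds, mut PDZ+LPS triangles), ordered by the Control value. The triangle of mut PDZ+LPS lies furthest right for 55 of the 77 genes, and no gene spans 2-fold between its lowest and highest library.

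The highest value lay in the mutant-peptide library for 55 genes, in Control for 19, in WT PDZ+LPS for 2 and in LPS for 1, whereas 36.1%, 26.4%, 21.0% and 16.5% of all expressed genes had their highest value there. The lowest value was in WT PDZ+LPS for 35 genes (17.6% of all genes), in LPS for 22 (17.7%), in Control for 11 (25.6%) and in mut PDZ+LPS for 9 (39.2%). The median gene spanned 0.37 on the log2 scale over the 4 libraries (0.45 for all expressed genes). No member spanned 2-fold, and 11 spanned at least 1.5-fold. The share of all expressed genes with such spans was not counted, so that these counts have no background beside them.

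The comparison of LPS with Control asks what 2 h of LPS did to these genes. Most stood slightly lower in LPS: 58 of the 77 genes were lower (50.2% of all expressed genes) and 19 higher, with a median log2 fold change of -0.061 against -0.0010 for all expressed genes. None reached 2-fold, a size seen for 4.87% of all genes, and none reached 1.5-fold, seen for 11.5%. The counting interval lay below 0 for 23 genes (29.9%; 21.2% of all genes) and above 0 for 5 (6.49%; 26.0% of all genes). Short transcripts as a whole were slightly lower in LPS. The 500 other genes nearest in transcript length to each member had a median of -0.046, from which the members differed by a median of -0.027, with 33 genes above and 44 below (50.1% of all genes were above). The size of the median followed the scaling, and it was -0.19 with library totals, by which all genes had a median of -0.13. Corrected for length and GC content, the median was -0.018, with 34 of the 77 genes higher in LPS.

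MRPL33, a small bacterial-type protein of the large subunit, stood apart. It had normalized counts of 878 in Control, 1229 in LPS, 1145 with the WT peptide and 1237 with the mutant peptide, so that Control was low and the 3 LPS-treated libraries lay close together. Its log2 fold change in LPS/Control was 0.48 (counting interval 0.36 to 0.60), which is 0.54 above genes of like length. MRPL32, which the m-AAA protease must cut before the large subunit can form, had normalized counts of 909 in Control, 1109 in LPS, 1031 with the WT peptide and 1496 with the mutant peptide and a log2 fold change of 0.29 (counting interval 0.16 to 0.41). Control was again its lowest library, and mut PDZ+LPS was its highest. MRPL32 overlaps PSMA2 on the other strand, and the strand setting of the counting was not given in the sources used here. MRPL50 (0.18), MRPS28 (0.13) and MRPL42 (0.10) followed with smaller log2 fold changes, and the counting interval of MRPS28 included 0.

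At the other end, MRPL12 had normalized counts of 4185 in Control, 3412 in LPS, 3665 with the WT peptide and 4924 with the mutant peptide and a log2 fold change of -0.29 (counting interval -0.36 to -0.23) in LPS/Control. It was lower in LPS and WT PDZ+LPS than in Control and highest in mut PDZ+LPS. MRPL10, which anchors the stalk, and MRPL11, at its base, had log2 fold changes of -0.079 and -0.20, so that all 3 stalk genes were lower in LPS, 2 of them with a counting interval below 0. The next lowest were MRPS26 (-0.27), a mitochondrion-specific protein of the small subunit, MRPS18B (-0.27), MRPL48 (-0.27) of the central protuberance, and MRPL51 (-0.25). All 3 MRPS18 paralogs, which descend from 1 bacterial protein, had log2 fold changes below 0 with intervals below 0, at -0.20 for MRPS18A, -0.27 for MRPS18B and -0.14 for MRPS18C. All 6 central protuberance genes (MRPL18, MRPL38, MRPL40, MRPL46, MRPL48 and MRPL52) were lower in LPS, with a median log2 fold change of -0.10, and 3 of the 6 had an interval below 0. Of the genes at the decoding site and mRNA channel, MRPS12 was at -0.14, MRPS5 at 0.015 and MRPS24 at -0.0001.

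GC content moved with these values. The 39 genes at or above the members' median GC content had a median log2 fold change of -0.083, with 35 of them lower in LPS. The 38 genes below it had a median of -0.033, with 23 lower, and all 5 genes whose interval lay above 0 were among them. Across the 77 genes, which share the same pair of libraries, the Spearman rank correlation between GC content and log2 fold change was -0.33, whereas across the 12109 expressed genes with a known transcript it was -0.020. The part of GC content in these differences was not tested.

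The comparison of WT PDZ+LPS with LPS asks what the WT peptide changed in LPS-treated cells. Among the mitochondrial ribosomal protein genes the median log2 fold change was -0.016, with 32 genes higher and 45 lower (47.2% of all genes), and the values ran from -0.21 (MRPL34) to 0.19 (MRPS30). None reached 2-fold (1.37% of all genes) or 1.5-fold (4.31%). The interval lay above 0 for 4 genes and below 0 for 10, against 12.1% and 10.1% of all genes. Genes of like length had a median of -0.0009, and the members differed from them by -0.012, with 30 above (50.1% of all genes). The Spearman rank correlation with transcript length across the 77 genes was 0.043.

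MRPS30, which despite its name is built into the large subunit, had normalized counts of 398 in Control, 399 in LPS, 455 with the WT peptide and 483 with the mutant peptide, and its log2 fold change of 0.19 (counting interval -0.0032 to 0.39) had an interval that touched 0. MRPL36 (0.16), MRPS12 (0.15), MRPL23 (0.13) and MRPS17 (0.12) came next, and of these MRPS12 and MRPL23 had an interval above 0. MRPL34, a small bacterial-type large-subunit protein, had normalized counts of 642 in Control, 609 in LPS, 527 with the WT peptide and 914 with the mutant peptide and a log2 fold change of -0.21 (counting interval -0.38 to -0.039). It was lowest in WT PDZ+LPS and highest in mut PDZ+LPS. MRPL40 (-0.19), MRPL55 (-0.17), MRPL44 (-0.17) and MRPS18A (-0.17) were the other low values. MRPL55 had the fewest reads of all members and an interval that included 0.

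The comparison of mut PDZ+LPS with LPS asks the same of the mutant peptide, against the same LPS library. LPS/Control also uses that library, so that a low value in LPS lowers the fold change there and raises it against LPS. These genes stood higher: 65 of the 77 were higher in mut PDZ+LPS (47.9% of all expressed genes) and 12 lower, and the median log2 fold change was 0.28, against -0.023 for all expressed genes. The counting interval lay above 0 for 54 genes (70.1%; 28.8% of all genes) and below 0 for 5 (6.49%; 34.2% of all genes). None reached 2-fold (3.95% of all genes), and 8 (10.4%) were at least 1.5-fold higher, a size reached upwards by 7.89% of all genes, with none 1.5-fold lower (9.80% of all genes).

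**Figure D3:**
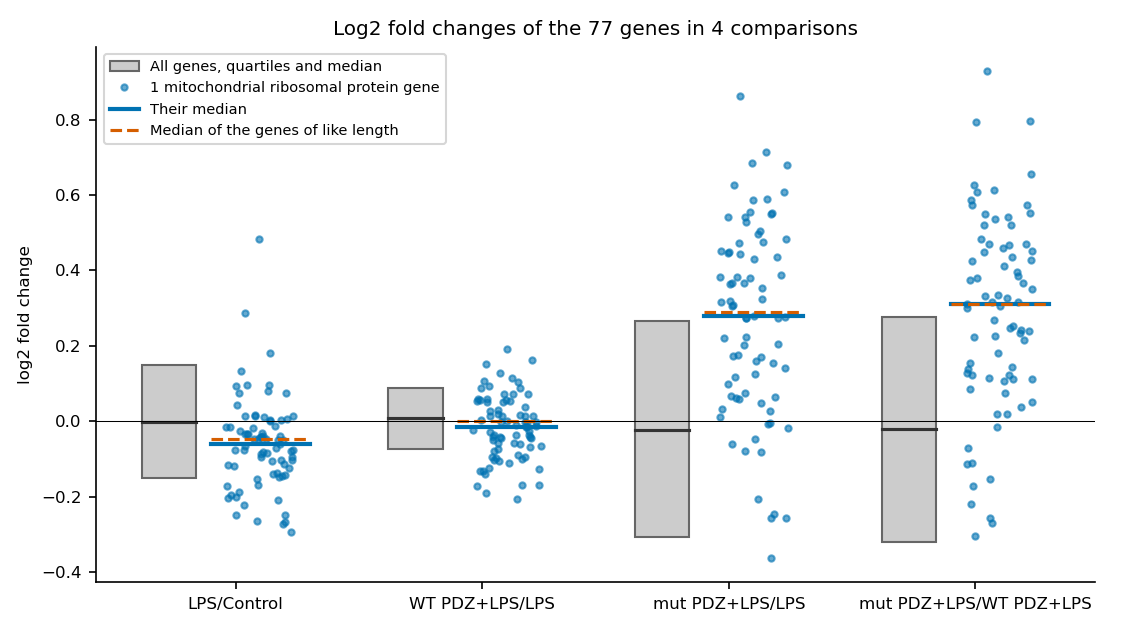
Log2 fold change (vertical axis) of the 77 mitochondrial ribosomal protein genes in each comparison (blue points, 1 per gene, spread sideways at random), with their median (blue line), the median of the genes of like transcript length (orange dashes) and the quartiles and median of all expressed genes (grey box). In both comparisons of the mutant peptide the points lie mostly above 0 while the grey box is centred near 0, and the blue and orange lines nearly coincide (0.28 and 0.29, 0.31 and 0.31).

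Short genes as a whole were higher in the mut PDZ+LPS library. Among all expressed genes the median log2 fold change went from 0.40 in the shortest decile (up to 1487 nt) to -0.47 in the longest decile, and 36 of the 77 members fall in the shortest decile. The 500 genes nearest in length to each member had a median of 0.29, and the members differed from them by a median of 0.016, with 44 above (50.1% of all genes) and 33 below. With the APPRIS principal transcript in place of the longest, a choice made after seeing the data, that difference was 0.034. With the median transcript it was 0.17. The median transcript follows the trend less closely, with a rank correlation across all genes of -0.37 against -0.61 for the longest and -0.59 for the principal transcript. Of the 5122 genes with a length in the members' central range (964 to 3238 nt), 2361 had an interval above 0, a smaller share than of the members. Intervals narrow with more reads, and the median member had 1169 normalized counts in Control, against 787 for expressed genes with a known transcript. The part of read number in this difference was not tested.

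Within the 77 genes the same order was seen. The shortest 25 had a median log2 fold change of 0.47 with all 25 higher, the middle 27 a median of 0.27, and the longest 25 a median of 0.15 with 16 higher. The rank correlation with transcript length was -0.49 across the members. GC content went the other way, with a rank correlation of 0.52 (0.41 across all genes), and the genes above the median GC content had a median of 0.43 against 0.17 for those below. After subtracting the genes of like length, the rank correlation with GC content was 0.19 in the members and 0.27 over all genes. After a correction for length and GC content together the median of the members was 0.017. After it, 39 of the 77 genes were higher in mut PDZ+LPS. The part of length and of GC content in these differences was not tested.

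The 4 members with the longest transcripts stood above the length trend. MRPL42 (15582 nt), MRPS23 (5621 nt), MRPS25 (4586 nt) and MRPS33 (4241 nt) had log2 fold changes of -0.019, 0.17, 0.31 and 0.28, which are 0.49, 0.45, 0.49 and 0.45 above genes of like length. The median annotated transcripts of these genes have 920, 580, 1281 and 744 nt, so that their distance from the trend depends on the transcript used.

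**Figure D4:**
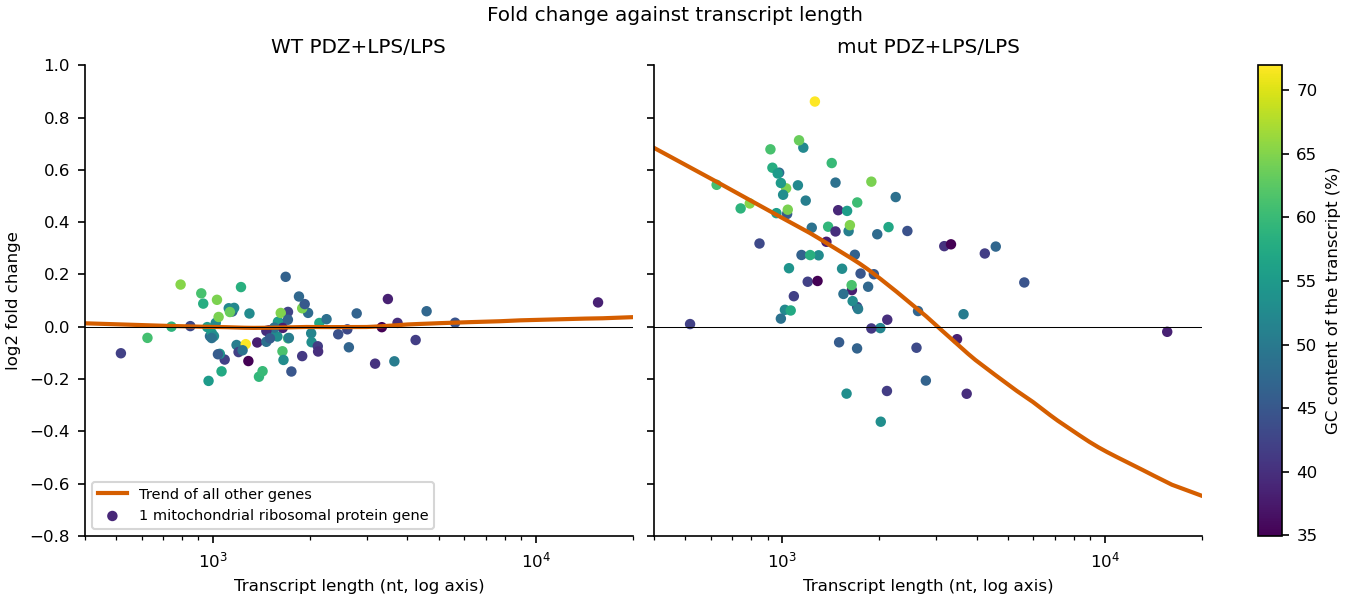
Log2 fold change (vertical axis) against transcript length (horizontal axis, logarithmic) for each peptide against LPS alone, with 1 point per mitochondrial ribosomal protein gene coloured by GC content and the trend of all other expressed genes in orange. The trend is flat in WT PDZ+LPS/LPS and falls with length in mut PDZ+LPS/LPS, where the members of short and middle length lie around it. At long lengths MRPL42, MRPS25, MRPS33 and MRPS23 lie above it, at 0.45 to 0.49 above the median of the genes of like length. The GC-rich MRPL41 is the highest point in mut PDZ+LPS/LPS.

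MRPL41, a mitochondrion-specific protein of the large subunit, had the largest difference, with normalized counts of 943 in Control, 868 in LPS, 829 with the WT peptide and 1578 with the mutant peptide and a log2 fold change of 0.86 (counting interval 0.74 to 0.98). Its value in mut PDZ+LPS was well above the other 3 libraries, which lay close together. It exceeded genes of like length by 0.51, and its transcript had a GC content of 71.9%, the highest of the members. After the correction for length and GC content MRPL41 was at 0.057. MRPS26 had normalized counts of 1741 in Control, 1441 in LPS, 1499 with the WT peptide and 2363 with the mutant peptide and a log2 fold change of 0.71 (counting interval 0.62 to 0.81). MRPL53 (0.68), MRPL23 (0.68), MRPL55 (0.63), MRPL21 (0.61), MRPL18 (0.59) and MRPL34 (0.59) were the other genes at 1.5-fold. After the same correction MRPS26 was at 0.11, and these other genes lay between 0.085 (MRPL23) and 0.34 (MRPL53). Of the 8 genes at 1.5-fold, 7 are MRPL genes of the large subunit and MRPS26 belongs to the small subunit, while 48 of all 77 members are MRPL genes. MRPL23 sits at the exit tunnel, MRPL18 in the central protuberance, and MRPL21, MRPL34 and MRPL55 are bacterial-type large-subunit proteins.

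Lower in mut PDZ+LPS was MRPL49, a mitochondrion-specific large-subunit protein, with normalized counts of 1995 in Control, 1973 in LPS, 1893 with the WT peptide and 1533 with the mutant peptide and a log2 fold change of -0.36 (counting interval -0.46 to -0.26), which is -0.54 from genes of like length. The other 3 libraries were close together. MRPL49 overlaps FAU and SYVN1 on the other strand, and FAU was among the highest cytosolic ribosomal protein genes in this comparison (0.75). MRPL35 (-0.26), MRPL37 (-0.26), MRPS10 (-0.25) and MRPS27 (-0.21), a protein with pentatricopeptide repeats, also had intervals below 0. MRPL37 stood -0.54 from genes of like length although its transcript (1582 nt) is of ordinary length for the members. MRPL33, with the shortest transcript of all, was at 0.01, which is -0.47 from genes of like length.

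MRPL and MRPS genes had different medians in this comparison. MRPL genes had a median log2 fold change of 0.37, with 38 of 48 intervals above 0 and 33 genes above their like-length median. MRPS genes had a median of 0.16, with 16 of 29 intervals above 0 and 11 genes above their like-length median. MRPL transcripts were shorter (median 1405 nt against 1640.0 nt) and richer in GC (51.3% against 47.3%). The medians after subtracting genes of like length were 0.080 and -0.071 (0.076 and -0.075 after correction for length and GC content), and this difference between the subunits was not tested.

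By structure and descent, with MRPS18A and MRPS30 counted in the large subunit where they are found, the 31 large-subunit proteins with a bacterial relative had a median log2 fold change of 0.37 and the 19 mitochondrion-specific ones 0.32. The 17 small-subunit proteins with a bacterial relative had 0.14, and 4 of them were above genes of like length. The 9 mitochondrion-specific proteins of the small subunit had 0.28. MRPS36, which later work places in the 2-oxoglutarate dehydrogenase complex rather than the ribosome, had a log2 fold change of 0.17.

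**Figure D5:**
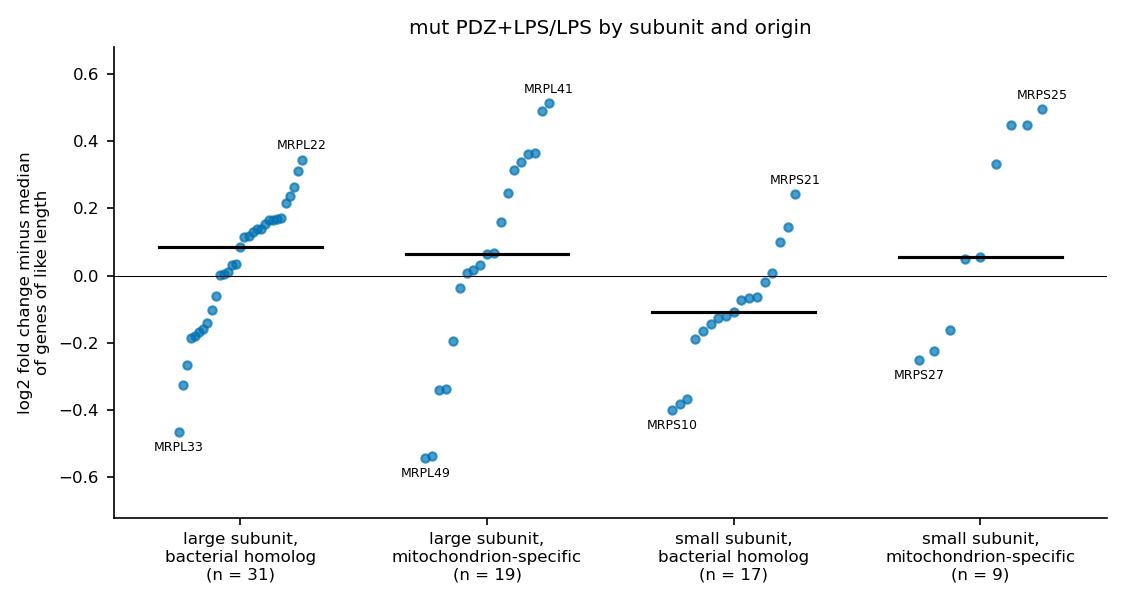
Difference (vertical axis) between the log2 fold change of a gene in mut PDZ+LPS/LPS and the median of the 500 genes nearest in transcript length, 1 point per gene in rising order, by subunit and descent, with the median as a black line and the lowest and highest gene of each class named. The small-subunit proteins with a bacterial relative have a median of -0.11, and the other 3 classes lie between 0.052 and 0.092.

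By role, all 6 central protuberance genes were higher in mut PDZ+LPS than in LPS (median log2 fold change 0.46), 5 of them with an interval above 0. MRPL18 was at 0.59, MRPL38 at 0.55 and MRPL52 at 0.54, whereas MRPL46 was at 0.065 (counting interval -0.13 to 0.26). MRPL38 stood 0.34 above genes of like length and has a GC content of 64.6%, and after the correction for length and GC content it was at 0.093. Of the 5 exit tunnel genes, MRPL23, MRPL24 (0.55), MRPL47 (0.32) and MRPL22 (0.31) were higher, while MRPL45, which ties the ribosome to the inner membrane, was at -0.083 (counting interval -0.23 to 0.059). In the stalk, MRPL12 (0.53) and MRPL11 (0.37) were higher and MRPL10 was at -0.0052. After the correction for length and GC content MRPL12, which has a GC content of 64.6%, was at -0.13, MRPL11 at 0.15 and MRPL10 at -0.15. The decoding and mRNA channel genes MRPS24 (0.45), MRPS12 (0.27) and MRPS5 (0.10) were all above 0 and all below their like-length median. So were MRPS18A (0.062), MRPS18B (0.22) and MRPS18C (0.14). After the correction these 6 genes lay below 0, from -0.035 (MRPS18B) to -0.39 (MRPS18A).

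The 2 peptides, which differ in the glycine pair, were given for the same time before the same LPS treatment, and this is the only pair of compounds. Between these libraries, as mut PDZ+LPS/WT PDZ+LPS, 67 of the 77 genes were higher with the mutant peptide (48.4% of all genes) and 10 lower, with a median log2 fold change of 0.31 (all genes -0.020). Intervals lay above 0 for 55 genes (29.4% of all genes) and below 0 for 7 (34.6%). None reached 2-fold (4.26% of all genes), and 8 were at least 1.5-fold higher (8.40% of all genes), with none 1.5-fold lower (10.7%). Genes of like length had a median of 0.31, and the members differed from them by 0.0098 (0.18 with the median transcript length), with 39 above (50.1% of all genes). After the correction for length and GC content the median was -0.022, with 35 of the 77 higher. In 6 genes the interval was below 0 for the WT peptide and above 0 for the mutant peptide, each against LPS, and 7.98% of all genes had intervals on opposite sides. This comparison shares the mut PDZ+LPS library with the previous one, so that the resemblance between their values is no second observation.

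The 8 genes were MRPL41 (0.93), MRPL55 (0.80), MRPL34 (0.79), MRPS26 (0.66), MRPL18 (0.63), MRPL53 (0.61), MRPS21 (0.61) and MRPL54 (0.59). MRPS21, a bacterial-type small-subunit protein, had normalized counts of 1281 in Control, 1139 in LPS, 1095 with the WT peptide and 1669.7 with the mutant peptide. Its sequence has 8 annotated pseudogenes, the reads of which could be counted with it. MRPL54, whose transcript is the second shortest, had normalized counts of 916 in Control, 847 in LPS, 822 with the WT peptide and 1234 with the mutant peptide, and after a correction for length and GC content its log2 fold change was -0.12, below 0. The lowest were MRPL49 (-0.30), MRPL35 (-0.27), MRPS27 (-0.26), MRPL37 (-0.22) and MRPS10 (-0.17), the same 5 genes as against LPS. In each of them mut PDZ+LPS was the lowest of the 4 libraries.

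Overlap with other genes and pseudogene copies could change single values. In all, 20 members overlap a coding gene on the other strand (MRPL34 with ABHD8 and MRPS12 with SARS2, for example) and 5 on the same strand (MRPL53 with CCDC142, for example), and 34 have annotated pseudogenes (75 in all). For the mutant peptide against LPS the median log2 fold change was 0.32 in the 57 genes with no overlap on the other strand and 0.22 in the 20 with one. It was 0.37 in the 43 genes without a pseudogene and 0.19 in the 34 with one, which also had longer transcripts (median 1647.5 nt against 1370.0 nt). In LPS/Control the 28 genes with ETS letters had a median of -0.091 and the 40 without -0.047, and in mut PDZ+LPS/LPS the medians were 0.34 and 0.27. For YY1 letters, the medians in mut PDZ+LPS/LPS were 0.27 in the 20 genes with a match and 0.33 in the 48 without.

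The other genes of mitochondrial translation were taken from lists. For the interval counts below, 28.8% of all expressed genes had an interval above 0 in mut PDZ+LPS/LPS and 34.2% had one below 0. Of 7 further ribosomal proteins under other symbols, 6 were higher in mut PDZ+LPS than in LPS with an interval above 0, led by GADD45GIP1 (0.85), AURKAIP1 (0.67) and CHCHD1 (0.56), and PTCD3, whose transcript is the longest of the 7, was lower (-0.11). In LPS/Control, CHCHD1 (-0.31) and ICT1 (-0.26), the peptide-release factor built into the large subunit, were the lowest. The factors that work with the ribosome had medians near 0. The 15 translation factors had a median of -0.0056 in mut PDZ+LPS/LPS, with 4 intervals above and 4 below 0, from GUF1 (-0.50) to C12orf65 (0.61). The 20 tRNA synthetases and related enzymes had a median of -0.044, with 5 intervals above and 8 below 0, from LARS2 (-0.56) to FARS2 (0.35). Their transcripts are longer (medians 2734 and 2770.0 nt), and genes of like length had medians of 0.048 and 0.041.

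The 28 genes of ribosome assembly and rRNA modification had a median of 0.12 in mut PDZ+LPS/LPS. Of their intervals 12 lay above and 2 below 0, against 28.8% and 34.2% of all expressed genes. MRM1, an rRNA methyltransferase, was highest (0.60) and FASTKD2 lowest (-0.27). The 20 genes of mitochondrial transcription and RNA handling had a median of 0.061, from LRPPRC (-0.56), which keeps mitochondrial mRNAs stable, to HSD17B10 (0.50). SLIRP, the partner of LRPPRC, was at 0.49, so that the 2 partners lay on opposite sides of 0. Neither value is corrected for transcript length, with which the medians of all genes fell in this comparison (0.40 in the shortest decile, -0.47 in the longest). The part of length in the difference between the partners was not tested. In LPS/Control, MTIF3 (-0.56), an initiation factor, C12orf65 (-0.50), PARS2 (-0.49), FARS2 (-0.42) and POLG2 (-0.61) were lower by more than any mitochondrial ribosomal protein gene. C12orf65 and FARS2 were also the highest of their lists in mut PDZ+LPS/LPS, which shares the single LPS library, so that these are not separate observations.

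Of the 12 regulators of mitochondrial biogenesis, MYC was the only one at 2-fold in any comparison. It had normalized counts of 4238 in Control, 8904 in LPS, 8892 with the WT peptide and 9164 with the mutant peptide, so that the 3 LPS-treated libraries lay together above Control, with a log2 fold change of 1.07 (counting interval 1.02 to 1.12) in LPS/Control. PPARGC1B, a co-activator, had normalized counts of 305 in Control, 564 in LPS, 599.8 with the WT peptide and 374 with the mutant peptide and a log2 fold change of 0.88 in LPS/Control, and PPRC1 was at 0.49. PPARGC1A went the other way at -0.43, and was lower again in mut PDZ+LPS/LPS (-0.74). The factors whose letters are in the promoters above had log2 fold changes in LPS/Control of 0.11 for GABPA, 0.13 for YY1 and -0.12 for NRF1. Against LPS alone, the lowest with the mutant peptide was SP1 (-0.96), followed by PPARGC1A and GABPB2 (-0.61), and ESRRA was the highest (0.30). Values of these regulators are likewise not corrected for transcript length.

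Nuclear genes of oxidative phosphorylation, which supply the partners of the proteins this ribosome makes, and cytosolic ribosomal protein genes are also short. The 78 oxidative phosphorylation genes had a median of -0.040 for LPS against Control, then -0.042 for the WT and 0.37 for the mutant peptide against LPS, and 0.43 for the mutant against the WT peptide. The 78 cytosolic ribosomal protein genes had medians of -0.069, 0.028, 0.49 and 0.46 in the same order. Their differences from genes of like length in mut PDZ+LPS/LPS were 0.060 and 0.15, compared with 0.016 for the mitochondrial ribosomal protein genes, and 46 of 76, 59 of 78 and 44 of 77 genes were above. RPL21 was the only gene of these 2 lists at 2-fold, with normalized counts of 748 in Control, 806 in LPS, 231 with the WT peptide and 443 with the mutant peptide and a fold change of -1.80 (log2) for the WT peptide against LPS. Cytosolic ribosomal protein genes have many near-identical pseudogenes, so that single values of this list are uncertain. The mRNAs of mitochondrial DNA, which the mitochondrial ribosome translates, were not analysed here.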

How the data were processed

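Per the labels and the study's methods, poly(A) RNA of 4 cultures was made into libraries with a strand-keeping kit and sequenced in pairs. The submitters' processing notes name TopHat and the hg19 build. The counting tool, its annotation and its strand setting are not given in the sources used here. The authors deposited whole-number read counts per gene symbol, 1 column per library and not normalized, although the study's text names FPKM.

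From these counts, size factors were computed as the median ratio to the geometric mean (DESeq2 1.42.0 in R 4.3.3), and log2 fold changes with a pseudocount of 1. Genes needed a mean of at least 16 normalized counts, and a call of 2-fold or 1.5-fold needed 16 normalized counts in 1 of the libraries compared. With 1 library per condition no count test was run. Intervals are exact (Clopper-Pearson) at 95% and hold counting error alone, because 1 library per condition shows no variation between cultures. PCR copies of a molecule could not be told from separate molecules, which the intervals do not allow for.

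Transcript length, GC content, overlaps and pseudogenes came from GENCODE 29, a GRCh38 annotation matched by symbol, and length means the longest coding transcript. Each gene was set against the median of the 500 genes nearest in length. A correction for length and GC content used locally weighted regression (statsmodels 0.14.6, span 0.3). Promoters came from RefSeq on GRCh38.p14, with the first window listed for the 11 members that have more than 1. The steps were tested on simulated data.

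Members named in the text are those with a fixed role, the 5 highest and 5 lowest in each comparison and in Control level, and every one at 1.5-fold. From the other lists they are the highest and lowest and every one at 2-fold, with MRPS36, SLIRP, the factors behind the motifs, MRPL20 and MRPS34 (promoters), MRPL9, MRPL14, MRPL30 and MRPS35 (motifs), MRPL13 (opposite intervals) and MRPS23 and MRPS25 (long transcripts) added after their values were seen. The members, lists and rules were chosen with earlier results of these data known. Alternatives were other scalings (TMM from edgeR 4.0.16, library totals, upper quartile), a pseudocount of 5, other expression minimums, other transcript lengths and 200 nearest genes.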

Additional observations from a re-analysis of the deposited data

Results flagged for a closer look

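In 6 genes the counting interval lay below 0 in WT PDZ+LPS/LPS and above 0 in mut PDZ+LPS/LPS, so that the single libraries of the 2 peptides stood on opposite sides of the shared LPS library. MRPL34 had log2 fold changes of -0.21 and 0.59, MRPL40 of -0.19 and 0.38, and MRPL44, which is related to the RNase III enzymes, of -0.17 and 0.20. MRPL22 had -0.14 and 0.31, MRPL13 had -0.13 and 0.12, and MRPL51 had -0.090 and 0.38. Opposite intervals were seen for 7.98% of all expressed genes, and 6 of 77 is close to that share. With 1 library per condition the difference was not tested.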

How the results depend on the processing

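No paired analysis was possible because each condition had 1 library, and no library could be left out for the same reason. Of 96 summary values under the alternatives, 84 stayed within the range set for the main value or count. For a median, that range was an interval across the 77 genes (-0.087 to -0.040 for the log2 fold change in LPS/Control). These genes share the same libraries, so the range holds no variation between cultures. Many of the 84 are counts of genes at 2-fold, which were 0 in the main result and stayed 0. The tally therefore cannot show how the values would vary between cultures. In LPS/Control the members' median was -0.19 with library totals (all genes -0.13), -0.12 with the upper quartile (all genes -0.062) and -0.018 after correction for length and GC content, and their difference from genes of like length was -0.061 with no expression minimum. In mut PDZ+LPS/LPS the difference from genes of like length was 0.25 with no expression minimum and 0.17 with the median transcript length, and the corrected median was 0.017. In mut PDZ+LPS/WT PDZ+LPS the same differences were 0.25 and 0.18, and the corrected median was -0.022, on the other side of 0. Both comparisons held 8 genes at 1.5-fold and none at 2-fold. MRPL54 reversed in mut PDZ+LPS/WT PDZ+LPS after the correction (-0.12). With the APPRIS principal transcript, added after seeing the data, the differences were -0.025, -0.012, 0.034 and 0.011 over the 4 comparisons. With no expression minimum the nearest genes include many with few reads. The cause of the other changes was not tested. Of 47 members named by rule, the correction changed the sign of 20 in mut PDZ+LPS/WT PDZ+LPS, 15 in mut PDZ+LPS/LPS (MRPL12 among both), 6 in LPS/Control and 3 in WT PDZ+LPS/LPS. Library totals changed the sign of 7 in LPS/Control, and the other scalings changed at most 2 in any comparison. Every member had at least 269 reads in each library. Even so, the counting interval of most members included 0 in LPS/Control and in WT PDZ+LPS/LPS, so that depth limits single values there. The lack of repeated cultures limits every comparison.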
